A study of Mus musculus with 24 samples.

Results

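The genes that write, maintain and erase DNA methylation were followed through the stepwise loss of the histone H3 lysine 9 methyltransferases (H3K9 KMTs) in mouse embryonic fibroblasts (MEFs). The 10 genes are Dnmt1, Dnmt3a, Dnmt3b, Dnmt3l, Uhrf1, Uhrf2, Hells, Tet1, Tet2 and Tet3. They were chosen by symbol and are 10 of the 47937 genes in the count table. RNA-seq of total RNA was made in 8 conditions with 3 libraries each, 24 in all. WT cells are an Eset1-conditional MEF line, a single sorted clone with a tamoxifen-inducible Cre recombinase, grown without 4-hydroxytamoxifen (4-OHT). E1 is the same line after 4-OHT, in which floxed exons of Eset1 (Setdb1) are deleted. In the first series, E1 S1S2 (clone B1) also carries mutations in Suv39h1 and Suv39h2, and 6KO1 (clone B1A6, derived from it) also carries mutations in Eset2 (Setdb2), G9a (Ehmt2) and Glp (Ehmt1). In the second series, E2 (clone A4) is mutant for Eset2 and was grown without 4-OHT, and E1E2 is this clone after 4-OHT. E1E2 G9Gl (clone E2, derived from clone A4) also lacks G9a and Glp. 6KO2 (clone E2F4, derived from clone E2) also lacks Suv39h1 and Suv39h2. 4-OHT was given at 1 µM and the cells then returned to normal medium. All mutations other than that of Eset1 were made with CRISPR/Cas9. After gene disruption an inducible Cre construct with puromycin resistance was introduced again and the lines were kept in puromycin, and whether WT and E1 carry it was not stated. Each mutant genotype is 1 clone, so genotype and clone cannot be told apart. The treatment field of the labels names 4-OHT for every sample. The sample titles, which mark the WT and E2 cultures as controls (ctr), were followed instead. That these controls had no 4-OHT was taken from the study's description of the lines.

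DNA methylation in mammals sits mainly on the cytosine of CpG pairs. Dnmt3a and Dnmt3b place it de novo, with Dnmt3l as a cofactor without catalytic activity that is used mostly in germ cells and early embryos. Dnmt1 copies it to the daughter strand after replication, guided by Uhrf1, a ring finger protein that binds hemimethylated CpG and methylated H3K9. Uhrf2 is its paralog, and Hells (Lsh) is a chromatin remodeler needed for methylation of repeats. Tet1, Tet2 and Tet3 are dioxygenases that oxidize 5-methylcytosine to 5-hydroxymethylcytosine, and thymine DNA glycosylase with base excision repair can then restore cytosine. H3K9 methylation and DNA methylation often mark the same heterochromatin and repeats.

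The 10 genes lie on 8 chromosomes of GRCm38. Tet1 is at chr10:62804570-62908996 on the minus strand, Tet2 at chr3:133463679-133545139 (minus) and Tet3 at chr6:83362373-83459084 (minus). Dnmt1 is at chr9:20907209-20959888 (minus), Uhrf1 at chr17:56303321-56323486 (plus), Uhrf2 at chr19:30030513-30093722 (plus) and Hells at chr19:38930915-38971051 (plus). Dnmt3a is at chr12:3806007-3914443, Dnmt3b at chr2:153649450-153687730 and Dnmt3l at chr10:78041947-78063622, all on the plus strand. Exons of Dnmt3a share 133 bases with an antisense gene (Dnmt3aos), those of Tet2 share 43 bases with the antisense gene Gm42567, and those of Dnmt3l share 67 bases with Aire on the opposite strand. The library kit keeps strand, but whether the counting used it was not stated, so reads over these bases may come from either gene. The other 7 members share no exon base with another gene.

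The promoters of the Tet genes differ widely in CpG content, the substrate of the enzymes themselves. RefSeq start sites (GRCm38.p6) gave 17 promoter windows for the 10 members, each with 250 bases before and 50 after a start. In the 250 bases before its start, Tet2 held 51 CpG, more than 99.9% of the 32851 windows of all genes, whose median was 6. Tet1 held 15 and Tet3 held 17 (more than 72.7% and 76.5% of windows). The 3 windows of Dnmt3l, the member with almost no transcript, held 3 to 5. Tet2 and Tet3 were called in no comparison, and Tet3 had nearly the CpG count of Tet1. The windows of Tet1, Tet2, Tet3 and Dnmt3l lie inside their annotated genes, downstream of the outermost annotated start. Of the 250 bases, 100 are annotated exon for Tet1, 174 for Tet3 and 0 for Tet2. A link between CpG content and the Tet1 level was not tested. The next 3 stretches show Tet1, the member that was downregulated, and windows of Tet2 and Dnmt3l, with high and low CpG content, with each CpG in capitals. They cover the longest part of the window without an annotated exon, which is chr10:62887325-62887412 for Tet1 (88 bases, 6 CpG, minus strand), chr3:133544391-133544640 for Tet2 (250 bases, 51 CpG, minus strand) and chr10:78049592-78049841 for Dnmt3l (250 bases, 4 CpG, plus strand, the second of its starts).
Tet1: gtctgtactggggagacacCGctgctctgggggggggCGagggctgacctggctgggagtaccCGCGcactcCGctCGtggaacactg
Tet2: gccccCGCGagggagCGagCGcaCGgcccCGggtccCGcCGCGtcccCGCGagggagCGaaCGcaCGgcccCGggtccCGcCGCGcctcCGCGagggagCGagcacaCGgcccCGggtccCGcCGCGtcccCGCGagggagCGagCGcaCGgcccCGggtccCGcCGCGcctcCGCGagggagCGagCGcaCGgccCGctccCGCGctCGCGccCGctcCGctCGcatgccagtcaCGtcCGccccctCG
Dnmt3l: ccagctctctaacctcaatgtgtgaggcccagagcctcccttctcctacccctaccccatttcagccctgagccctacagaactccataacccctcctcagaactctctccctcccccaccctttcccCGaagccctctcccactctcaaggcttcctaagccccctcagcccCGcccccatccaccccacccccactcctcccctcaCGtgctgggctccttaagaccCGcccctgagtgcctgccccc

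Dnmt1, Uhrf1 and Hells, the maintenance genes, each had a window with letters that E2F factors, regulators of S phase genes, are known to bind. TTTCCCGC, TTTCGCGC, TTTGCCGC and TTTGGCGC were searched on both strands of the 300 bases. A match was found in 744 of 32851 windows (2.26%), and in 3 of the 17 windows of the members. The matches are shown in capitals with up to 10 bases on each side.
Dnmt1 (chr9:20952825-20952852, minus strand): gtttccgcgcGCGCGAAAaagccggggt
Dnmt1 (chr9:20952574-20952600, minus strand): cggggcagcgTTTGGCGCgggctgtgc
Uhrf1 (chr17:56304118-56304145, plus strand): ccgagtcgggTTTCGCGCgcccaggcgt
Hells (chr19:38930918-38930945, plus strand): accaccgggtTTTCCCGCgaaagagaag
A match is a description of the letters only. The other 7 members had none in these windows.

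Between 24737307 and 37419816 counts were assigned per library, of which 19541909 to 31489070 fell on genes. WT replicate 2 stood apart from the other WT libraries: the chi-square statistic per gene was 59.8 and 50.0 against WT replicates 1 and 3, and 2.16 to 22.2 in the pairs of the other conditions and of WT replicates 1 and 3. Its TMM factor was 0.906. Results against WT that passed are therefore also given without it. The deleted exons of Eset1 and CRISPR frameshifts need not lower a gene count, so the targeted genes check the labels only in part. Against WT, Setdb1 differed by -0.57 on the log2 scale in E1, -0.57 in 6KO1 and -0.95 in 6KO2, and Suv39h1 was at -1.14 for E1 S1S2, -1.73 for 6KO1 and -0.81 for 6KO2. In E1E2 the Setdb1 difference (-0.31) was like that in E2 (-0.31), and Suv39h2 stood at 0.76 in E1 S1S2. Of 10 fibroblast markers 9 were tested. In counts-per-million (CPM, normalised read counts), Col1a1, Vim and Fn1 averaged 503 or more in every condition. Several markers were far below WT in some mutants, and a few were above it in others. In 6KO1 all 9 were lower by the adjusted p and 5 were downregulated, among them Col1a1 (1704 to 503 CPM) and Pdgfra (5.09 to 0.123 CPM). In E1 S1S2, 3 were downregulated (Col3a1 -2.72, Col1a2 -2.49 and Thy1). Lum was at or near 0 in all conditions, and Thy1 averaged 7.86 CPM in WT but 0.0340 for E1 S1S2, 0.0116 for 6KO1 and 0.0695 for 6KO2. In E1E2 G9Gl, Thy1 averaged 16.3 CPM and Col3a1 1921, the latter against 714 in WT. Dcn averaged 1.43 CPM in WT, 4.38 in E2, 3.66 in E1E2 and 5.46 in 6KO2, but 0.0229 in 6KO1 and 0.0816 in E1E2 G9Gl. In each of E2, E1E2 and 6KO2, 1 marker was upregulated and 2 downregulated, and in E1E2 G9Gl 2 and 2.

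In WT, the maintenance genes were the most abundant members and the Tet and de novo genes were low. Levels between genes are given as RPKM, counts scaled by library size per kilobase of annotated exons (mean ± SD, n = 3). Dnmt1 stood at 57.1 ± 8.77, Hells at 49.1 ± 7.90 and Uhrf1 at 46.3 ± 3.23, at percentiles 94.1, 92.9 and 92.5 of the tested genes. The ranges of the libraries of these 3 overlapped. Uhrf2 followed at 13.7 ± 0.488 and Tet3 at 5.41 ± 1.26. Dnmt3a (2.26 ± 0.551), Tet2 (1.91 ± 0.289) and Dnmt3b (1.64 ± 0.0714) overlapped their neighbours, and Tet1 (1.23 ± 0.145) lay below all of them at percentile 32.2. Dnmt3l had 1 count in each WT library. The WT order was the same with the longest transcript as length. Among the mutants, ranks 4 to 10 held the same genes in the same order in all 7 conditions, and Uhrf1 stood above Hells in each. Uhrf1 also stood above Dnmt1 in E1 S1S2, the only condition where that was so.

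**Figure D1:**
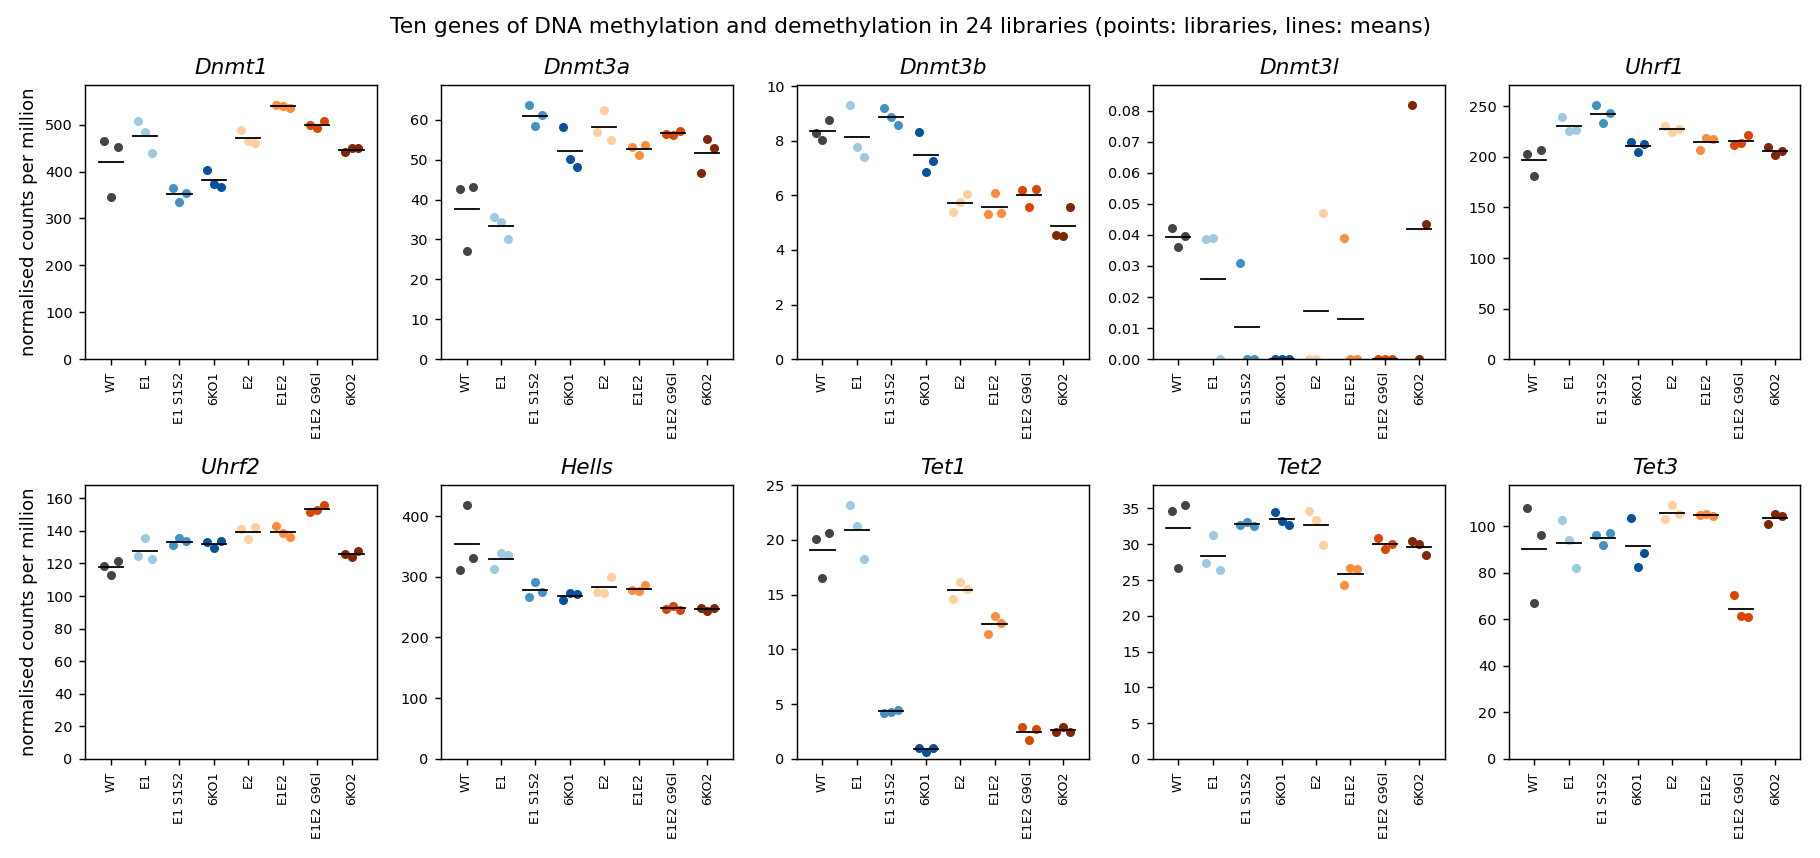
Level of the 10 genes in each library, in normalised CPM (vertical axes, linear from 0, with a scale of their own for each gene), by condition (horizontal axes). Points are libraries and lines are means of 3, and Tet1 dropped from 16.5 to 20.6 in WT to 0.619 to 1.04 in 6KO1 while no other tested gene reached a 2-fold difference between any pair of condition means.

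Tet1, the dioxygenase best known from embryonic stem cells and germ cells, was downregulated in the 4 conditions that lack Suv39h1 and Suv39h2, G9a and Glp, or all of these. Its level, in CPM scaled by the TMM factors, was 20.1, 16.5 and 20.6 in the 3 WT libraries and 23.2, 21.3 and 18.2 in E1. In E1 S1S2 it was 4.24, 4.29 and 4.51, and in 6KO1 1.04, 0.619 and 1.00. These last values rest on 30, 18 and 26 counts, against 458 to 520 in WT. The libraries of E1 S1S2 lay below all WT and E1 libraries, and those of 6KO1 below all others of the study. In the second series, Tet1 stood at 14.6, 16.2 and 15.5 in E2 and at 11.4, 13.0 and 12.5 in E1E2. It stood at 2.90, 1.74 and 2.71 in E1E2 G9Gl and at 2.45, 2.94 and 2.44 in 6KO2, and these 2 conditions overlapped.

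**Figure D2:**
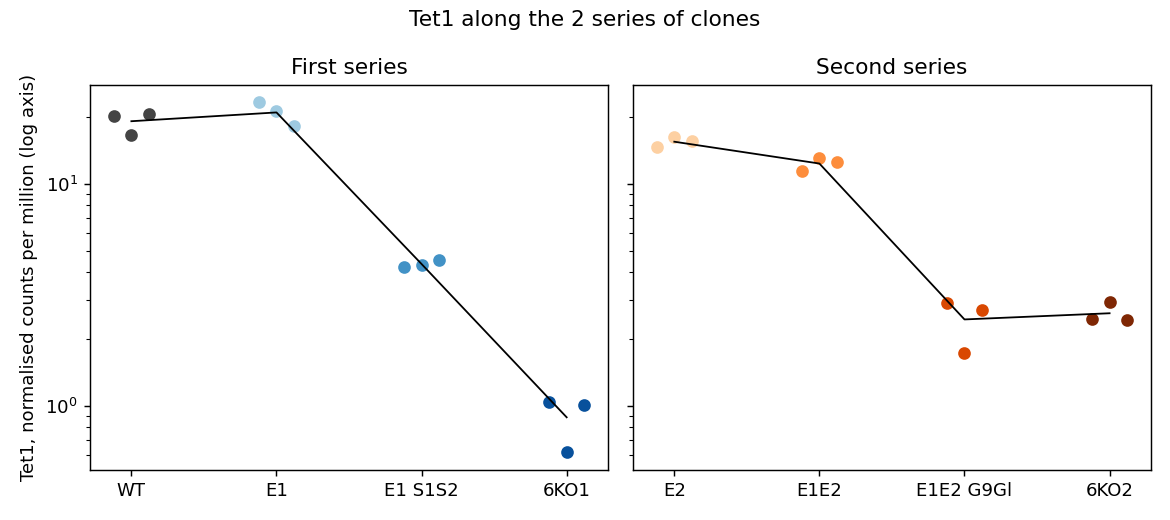
Tet1 in normalised CPM (vertical axis, log scale) along the first series (left) and the second series (right), with conditions in order of the mutations on the horizontal axis. Points are libraries and the line joins the means, which fall at E1 S1S2 (4.35) and 6KO1 (0.889) on the left and at E1E2 G9Gl (2.45) on the right.

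Genes were tested in 1 edgeR quasi-likelihood model of the 24 libraries, with Benjamini-Hochberg adjustment over 18565 genes. Up- or downregulated means here that the level differed 2-fold or more with an adjusted p no larger than 0.01. Against WT, Tet1 was 4.38-fold lower in E1 S1S2 (log2 fold change -2.13 ± 0.13 SE, edgeR adjusted p 4.44e-12) and 21.4-fold lower in 6KO1 (-4.42 ± 0.17, edgeR adjusted p 1.33e-16). It was 7.77-fold lower in E1E2 G9Gl (-2.96 ± 0.15, edgeR adjusted p 2.47e-14) and 7.31-fold lower in 6KO2 (-2.87 ± 0.15, edgeR adjusted p 6.18e-14). In E1E2 it was 1.55-fold lower (-0.63 ± 0.12, edgeR adjusted p 0.000172, and -0.73 without WT replicate 2), short of the fold threshold. Its values in E1 (0.13 ± 0.12) and E2 (-0.30 ± 0.12) did not pass. Without WT replicate 2, the 4 calls stood at -2.23, -4.52, -3.05 and -2.96. Leaving out each library in turn kept the 6KO1 value between -4.57 and -4.22.

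Each step of the series was also compared with the line before it. Tet1 was 4.80-fold lower in E1 S1S2 than in E1 (-2.26 ± 0.13, edgeR adjusted p 3.07e-12). It was a further 4.89-fold lower in 6KO1 than in E1 S1S2 (-2.29 ± 0.19, edgeR adjusted p 3.04e-10). In E1E2 G9Gl it was 5.02-fold lower than in E1E2 (-2.33 ± 0.15, edgeR adjusted p 4.25e-12). Each of these steps is also a change of clone. The last step to 6KO2, which adds Suv39h1 and Suv39h2, gave 0.09 ± 0.18, and 4-OHT in the Eset2 clone gave -0.33 ± 0.12, neither of which passed. The Suv39h1 and Suv39h2 step thus differed between the E1 and E1E2 G9Gl backgrounds by 2.35 ± 0.22 (edgeR adjusted p 8.28e-09), in a contrast that 39.2% of all genes passed. 6KO1, with the same 6 genes mutated as 6KO2, held 2.94-fold less Tet1 (-1.55 ± 0.21, edgeR adjusted p 9.72e-07), and the libraries did not overlap.

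Tet1 was the only member downregulated in any of the 13 comparisons, and no member was upregulated, so 1 of 9 tested members was called against WT in E1 S1S2, 6KO1, E1E2 G9Gl and 6KO2. Of all genes tested, 5.11% were downregulated and 6.65% upregulated in E1 S1S2. For 6KO1 these shares were 10.2% and 20.6%, for E1E2 G9Gl 8.41% and 16.8%, and for 6KO2 5.39% and 15.3%. For the steps, they were 3.74% and 4.31% for E1 S1S2 against E1, 5.02% and 16.3% for 6KO1 against E1 S1S2, 6.78% and 14.8% for E1E2 G9Gl against E1E2, and 7.10% and 9.77% for 6KO1 against 6KO2. No member was called by edgeR or DESeq2 in E1, E2 and E1E2 against WT, in E1E2 against E2 and in 6KO2 against E1E2 G9Gl. At an unadjusted edgeR p under 0.05, 4, 7, 8, 3 and 4 members passed there, none of them with a fold change of 2. The shares of all genes down- and upregulated were 1.99% and 2.27% in E1, 3.21% and 2.90% in E2, 3.22% and 5.51% in E1E2, 0.657% and 2.32% for E1E2 against E2, and 9.12% and 7.19% for 6KO2 against E1E2 G9Gl.

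With the adjusted p alone and no fold threshold, smaller differences came into view. Of 9 members, 1 passed in E1 against WT, where 13.3% of all genes did. E1 S1S2 had 6 (41.8% of all genes) and 6KO1 had 4 (66.3%). E2 had 5 (26.9%), E1E2 had 7 (33.1%), E1E2 G9Gl had 7 (59.1%) and 6KO2 had 4 (54.5%). The median log2 fold change of the members lay between -0.10 (E1E2 G9Gl) and 0.16 (E2), and that of all genes between -0.01 and 0.06. The 7 comparisons share the WT libraries. In a fit of only the 6 libraries compared, 22 of the 47 member values that passed over all comparisons no longer did, all of them against WT and under 2-fold. They were all 3 values of Dnmt1, all 3 of Uhrf1, 4 of 5 of Uhrf2, 4 of 6 of Hells, 5 of 6 of Dnmt3a, 1 of 4 of Dnmt3b (in E2), and the single values of Tet2 and Tet3.

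**Figure D3:**
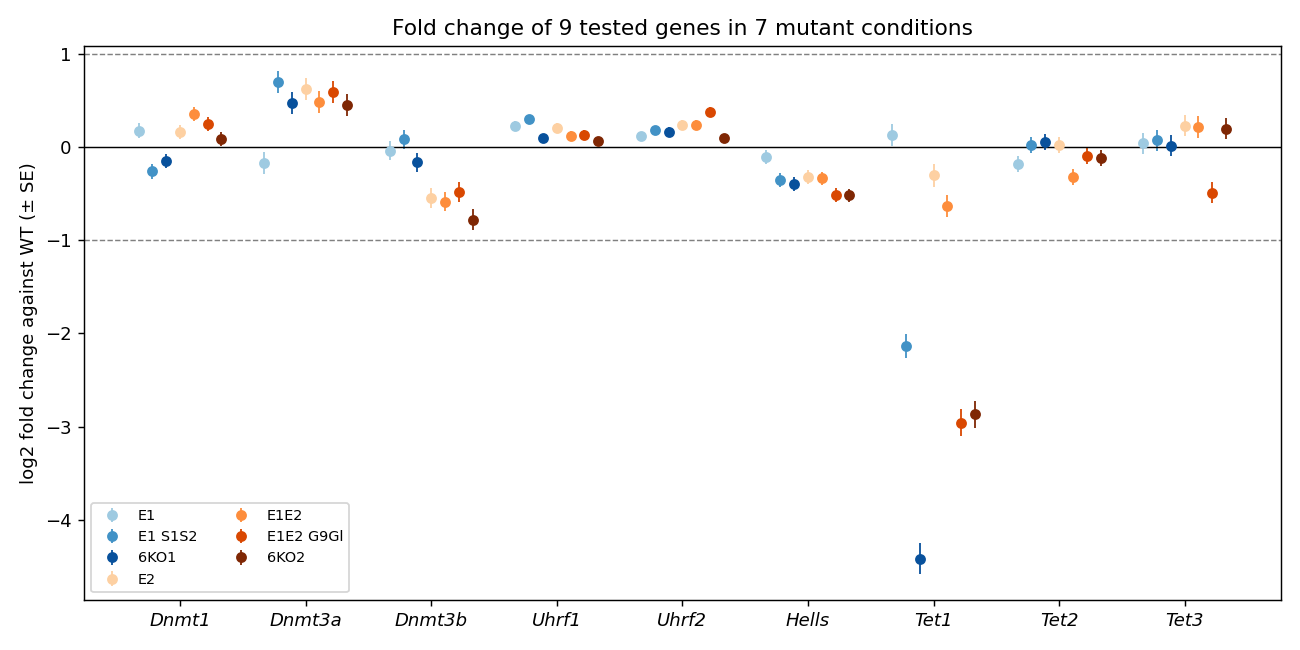
Log2 fold change against WT (vertical axis, points with SE bars) of the 9 tested members (horizontal axis) in the 7 mutant conditions (colours). Dashed lines mark a 2-fold difference, which Tet1 passed in 4 conditions, down to -4.42 in 6KO1, and no other member passed.

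Tet2 and Tet3, which oxidize 5-methylcytosine like Tet1, passed the 2-fold threshold in no comparison, and Tet3 was lower in E1E2 G9Gl alone of the 7 mutant conditions by the adjusted p. Tet3 stood at 108, 66.9 and 96.4 CPM in WT, at 105, 105 and 104 in E1E2, at 70.5, 61.3 and 61.2 in E1E2 G9Gl and at 101, 105 and 104 in 6KO2. The E1E2 G9Gl libraries lay below those of E1E2 and 6KO2 but overlapped WT through its low replicate 2. Tet3 was lower in E1E2 G9Gl than in E1E2 by 0.70 ± 0.12 on the log2 scale (edgeR adjusted p 1.27e-05) and higher in 6KO2 than in E1E2 G9Gl by 0.68 ± 0.12 (edgeR adjusted p 2.64e-05). Against WT it differed by -0.49 ± 0.12 in E1E2 G9Gl (edgeR adjusted p 0.00072), by -0.66 without WT replicate 2 and by -0.34 without WT replicate 1 (edgeR adjusted p 0.0102). Its differences in the other 6 conditions, from 0.02 to 0.23, did not pass. Tet2 ranged from 24.4 to 35.5 CPM over all libraries. It was lowest in E1E2, at 24.4, 26.7 and 26.5 CPM against 34.6, 26.6 and 35.5 in WT, a difference of -0.32 ± 0.09 (edgeR adjusted p 0.00433) that no longer passed without WT replicate 1 (-0.26) or 3 (-0.24) or without E1E2 replicate 1 (-0.28) or 3 (-0.33), and was -0.44 without WT replicate 2. In the other 6 conditions Tet2 differed from WT by -0.18 to 0.06. Within the Eset2 clone, Tet2 was lower in E1E2 than in E2 by 0.34 ± 0.09 (edgeR adjusted p 0.00676), with no overlap. That difference missed the threshold in 12 of the alternatives.

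Per exon length, Tet3 made up most of the Tet transcripts in every condition. It took 62.9% ± 2.80 (SD, n = 3) of the summed Tet RPKM in WT and 66.5% to 76.3% in E1 S1S2, 6KO1, E1E2 G9Gl and 6KO2. The share of Tet1 was 14.6% ± 1.40 in WT, 15.7% ± 0.423 in E1, 10.8% ± 0.403 in E2 and 9.25% ± 0.472 in E1E2. It came to 3.55% ± 0.0965 for E1 S1S2, 2.72% ± 0.598 for E1E2 G9Gl, 2.08% ± 0.189 for 6KO2 and 0.759% ± 0.164 for 6KO1. The summed Tet level was 6.65 to 9.80 RPKM in WT, 6.95 to 8.31 in 6KO1 and 8.13 ± 0.144 (SD, n = 3) in 6KO2. The libraries of these 3 conditions overlapped, whereas E1E2 G9Gl lay lower, at 5.53 to 6.24.

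**Figure D4:**
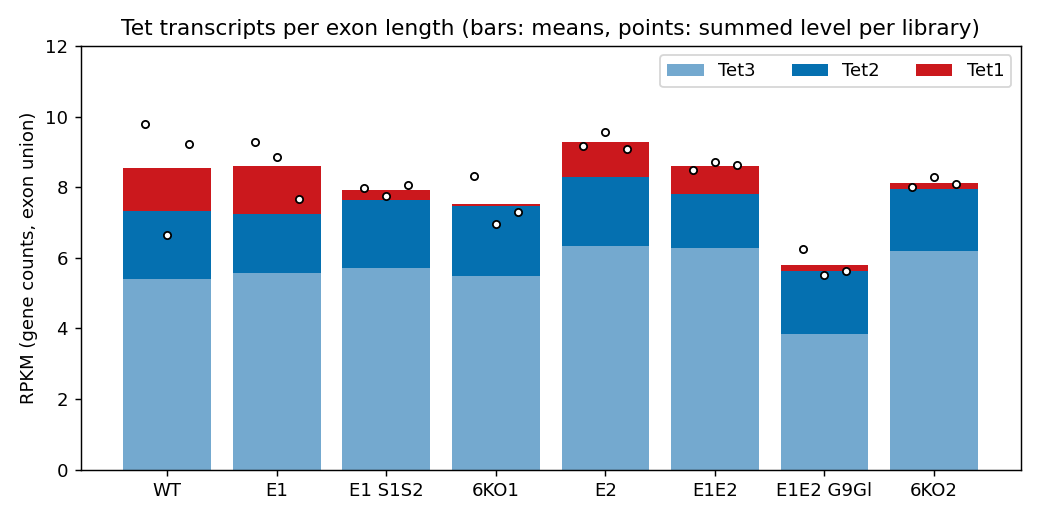
Mean RPKM of Tet3, Tet2 and Tet1 stacked (vertical axis, from 0) in the 8 conditions (horizontal axis), with the summed Tet level of each library as open points. The red Tet1 part shrinks from 14.6% of the WT bar to 0.759% of the 6KO1 bar, and the lowest bar is E1E2 G9Gl with 5.80 RPKM in the mean.

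Markers of other cell types were measured beside the Tet1 result. Of 5 macrophage markers 3 were tested, and their summed level was 3.64 to 4.29 CPM in WT, 4.40 to 5.66 in E1 S1S2, 21.4 to 24.3 in 6KO1, 24.5 to 25.8 in E1E2 G9Gl and 5.01 to 6.01 in 6KO2, with Adgre1 at 0 throughout. For the 5 epithelial markers (3 tested) the sums were 1.31 to 1.98 in WT, 10.2 to 12.5 in E1 S1S2, 25.8 to 27.2 in 6KO1, 12.2 to 12.9 in E1E2 G9Gl and 23.2 to 24.5 in 6KO2, with Krt8 and Krt14 the main part in the mutants and Epcam at or below 0.436 CPM in the mean of each condition. The epithelial sums were also above WT where Tet1 was not called, at 5.23 to 6.6 in E1, 8.65 to 11.2 in E2 and 5.02 to 7.26 in E1E2, and Krt8 was upregulated in all 7 mutant conditions. In these 3 conditions the macrophage sums ranged from 2.13 to 5.31 and the endothelial sums from 0.319 to 1.25. For the 5 endothelial markers (4 tested) they were 0.469 to 0.589 in WT, 1.36 to 1.48 in E1 S1S2, 4.79 to 5.52 in 6KO1, 2.66 to 3.47 in E1E2 G9Gl and 3.96 to 5.45 in 6KO2. Among 6 pluripotent cell markers, of which 3 were tested, Zfp42 was at 0 in every condition and the sums stayed at or below 4.21 CPM, Dppa4 being most of that in 6KO1. Fibroblast markers summed to 6612 to 8412 CPM in WT, to 5730 to 6334 in E1 S1S2, to 3681 to 4172 in 6KO1 and to 5529 to 5672 in 6KO2, but to 8459 to 9191 in E1E2 G9Gl, above every WT library. In E1, E2 and E1E2, where Tet1 was not called, they ranged from 5521 to 7084. The part of these shifts in the Tet1 result was not tested. In such bulk samples, fewer cells that express a gene and less RNA per cell cannot be told apart.

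The maintenance genes kept their levels within 1.53-fold between any 2 condition means. Dnmt1, the copying enzyme, stood at 464, 347 and 452 CPM in WT, at 508, 484 and 439 in E1, at 365, 336 and 354 in E1 S1S2 and at 403, 374 and 367 in 6KO1. In the second series it stood at 489, 465 and 461 in E2, at 541, 540 and 535 in E1E2, at 499, 493 and 507 in E1E2 G9Gl and at 441, 450.3 and 449 in 6KO2. The second series thus lay above E1 S1S2 and 6KO1 in every library. Dnmt1 was lower in E1 S1S2 than in E1 by 0.44 ± 0.08 on the log2 scale (edgeR adjusted p 5.45e-05), with no overlap. Against WT it was higher in E1E2 by 0.36 ± 0.08 (edgeR adjusted p 0.000554), and by 0.23 without WT replicate 2. The differences in E1 S1S2 (-0.26 ± 0.08, edgeR adjusted p 0.00632) and E1E2 G9Gl (0.25 ± 0.08, edgeR adjusted p 0.00645) lay close to the adjusted p threshold of 0.01. That in E1 S1S2 was larger without WT replicate 2 (-0.38, edgeR adjusted p 1.29e-06). It missed the threshold without WT replicate 1 (-0.18) or 3 (-0.21). It also did so with RLE factors (-0.25, edgeR adjusted p 0.010045) and at a mean normalized count above 100 (-0.24, edgeR adjusted p 0.0141). The difference in E1E2 G9Gl missed it without WT replicate 2 (0.12, edgeR adjusted p 0.0394) and when repeats entered the TMM factors (0.21, edgeR adjusted p 0.0177). The value in E1 S1S2 also missed the threshold when any of its own libraries (-0.27 to -0.21), any 6KO1 library or E1E2 G9Gl replicate 3 (-0.24) was left out, and that in E1E2 G9Gl when any of its own libraries was (0.24 to 0.26).

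Uhrf1, which brings Dnmt1 to hemimethylated DNA, ranged from 181 to 251 CPM over the 24 libraries, and its condition means differed by at most 1.23-fold. It stood at 203, 181 and 207 in WT and at 251, 234 and 244 in E1 S1S2, the highest condition, with no overlap (0.30 ± 0.05, edgeR adjusted p 2.44e-05). In E1 it was higher than in WT by 0.23 ± 0.05 (edgeR adjusted p 0.00181), which no longer passed without E1 replicate 1 (0.20, edgeR adjusted p 0.0168), and in E2 by 0.21 ± 0.05 (edgeR adjusted p 0.00199). Without WT replicate 2 the values were 0.24 for E1 S1S2, 0.17 for E1 and 0.15 for E2, and none of the 3 passed in a fit of only the 6 libraries compared (edgeR adjusted p 0.0185 to 0.231). The step from E1 S1S2 to 6KO1 gave -0.20 ± 0.05 (edgeR adjusted p 0.00116). 4-OHT gave -0.09 in the Eset2 clone and 0.23 in the parent line, a difference of -0.31 ± 0.07 (edgeR adjusted p 0.00323) in a contrast that 8.88% of all genes passed. Uhrf2 stood at 118, 113 and 122 CPM in WT and reached 152, 153 and 156 in E1E2 G9Gl (0.38 ± 0.05, edgeR adjusted p 1.42e-07). It was higher than WT in E1 S1S2, 6KO1, E2 and E1E2 by 0.17 to 0.24, and lower in 6KO2 than in E1E2 G9Gl by 0.28 ± 0.05 (edgeR adjusted p 1.70e-05). The 6KO1 value of 0.17 did not pass without 6KO1 replicate 1 (0.16) or 3 (0.15). Without WT replicate 2, Uhrf2 was at 0.36 for E1E2 G9Gl and 0.14 to 0.22 for the other 4, and in the fit of 6 libraries E1E2 G9Gl alone passed (edgeR adjusted p 0.0303 to 0.0742 in the others).

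Hells, the remodeler, stood at 311, 418 and 331 CPM in WT and at 313, 339 and 336 in E1. In the other 6 conditions each library lay below each WT library, with 262 to 300 CPM in E1 S1S2, 6KO1, E2 and E1E2 and 243 to 252 in E1E2 G9Gl and 6KO2. The log2 fold changes were -0.35 for E1 S1S2, -0.39 for 6KO1, -0.32 for E2 and -0.33 for E1E2, and -0.51 and -0.52 (both ± 0.07) in E1E2 G9Gl and 6KO2, with an edgeR adjusted p of 1.95e-06 for 6KO2. Without WT replicate 2, the library with the highest Hells level, they were -0.21, -0.26, -0.18, -0.20, -0.37 and -0.38, and all passed. In the fit of 6 libraries E1E2 G9Gl and 6KO2 passed, and E1 S1S2, 6KO1, E2 and E1E2 did not (edgeR adjusted p 0.0461, 0.0112, 0.116 and 0.0547).

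Of the de novo enzymes, Dnmt3a was higher than WT in 6 of the 7 mutant conditions and Dnmt3b was lower in the 4 conditions of the second series. Dnmt3a stood at 42.7, 27.1 and 43.2 CPM in WT, at 35.7, 34.4 and 30.0 in E1 and at 63.6, 58.3 and 61.3 in E1 S1S2. It ranged from 46.6 to 62.6 in the other 5 conditions, above every WT library. The log2 fold changes were 0.70 ± 0.12 for E1 S1S2 (edgeR adjusted p 2.45e-05), 0.47 for 6KO1, 0.63 for E2, 0.49 for E1E2, 0.59 for E1E2 G9Gl and 0.46 for 6KO2. Without WT replicate 2, which had the lowest level, they were 0.51, 0.28, 0.44, 0.29, 0.40 and 0.26. The 6KO1 value did not pass without 6KO1 replicate 1 (0.38, edgeR adjusted p 0.0134), nor the 6KO2 value without 6KO2 replicate 2 (0.41, edgeR adjusted p 0.0114). The largest step of Dnmt3a was from E1 to E1 S1S2, 0.87 ± 0.12 (1.83-fold, edgeR adjusted p 1.96e-06), close under the fold threshold. The step from E1E2 G9Gl to 6KO2, with the same mutations, gave -0.13. The difference of the 2 steps was -1.01 ± 0.17 (edgeR adjusted p 2.23e-05), in a contrast that 39.2% of all genes passed.

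Dnmt3b stood at 8.29, 8.04 and 8.76 CPM in WT, and E1, E1 S1S2 and 6KO1 ranged from 6.84 to 9.30. In the second series it stood at 5.40, 5.74 and 6.06 in E2, at 5.33, 6.08 and 5.35 in E1E2, at 6.18, 5.57 and 6.24 in E1E2 G9Gl and at 4.54, 4.52 and 5.59 in 6KO2. All 12 of these libraries lay below all 12 of WT and the first series. The log2 fold changes against WT were -0.54 for E2, -0.58 for E1E2, -0.48 for E1E2 G9Gl and -0.78 ± 0.11 for 6KO2 (edgeR adjusted p 1.72e-06), and stayed between -0.81 and -0.51 without WT replicate 2. The difference was present in E2, before Eset1 was deleted. All conditions of the second series descend from clone A4, so the Eset2 mutation and this founder clone cannot be told apart. 6KO1 held 1.53-fold more Dnmt3b than 6KO2 (0.62 ± 0.11, edgeR adjusted p 4.16e-05). The ratio of Dnmt3a to Dnmt3b in RPKM was 1.37 ± 0.298 for WT, 1.26 ± 0.0922 for E1, 2.11 ± 0.0899 for E1 S1S2 and 2.14 ± 0.110 for 6KO1. In the second series it lay between 2.90 and 3.27 in the condition means.

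Dnmt3l stayed below the floor of this depth. It had 11 counts in all: 14 libraries had 0, 9 had 1 and 1 library (6KO2 replicate 1) had 2. It was left out of the tests, and 3 counts, the upper limit that a count of 0 allows, correspond to 0.0928 to 0.154 CPM. No rise in a mutant was detectable at this depth.

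Of other genes of the methylation and demethylation machinery, more were lower than higher in each mutant, with counts that ranged from 7 of 36 lower in E1 to 25 of 36 in 6KO2. Of 38 listed genes 36 were tested, and with the adjusted p alone 21 were lower and 7 higher than WT in 6KO1, against 25 lower and 3 higher for 6KO2 and 22 lower and 2 higher for E1E2 G9Gl, where 66.3%, 54.5% and 59.1% of all genes passed in either direction. In E1E2, 20 were lower and 5 higher, in E1 S1S2 17 and 3, in E2 14 and 5, and in E1 7 and 1. Of all genes, 33.1%, 41.8%, 26.9% and 13.3% passed there in either direction. How all genes split by direction at the adjusted p alone was not counted, so the lower and higher counts have no matching share. Their median log2 fold change was -0.31 for 6KO1, -0.40 for 6KO2 and -0.44 for E1E2 G9Gl, beside 0.06, 0.04 and 0.01 for all genes. At the fold threshold, 7 were downregulated and 1 upregulated in 6KO1, where 10.2% of all genes were downregulated and 20.6% upregulated. Idh1, which makes the 2-oxoglutarate that Tet enzymes use, fell by 2.49 on the log2 scale, from a mean of 82.9 to 14.7 CPM. Tdg, the glycosylase that removes oxidized 5-methylcytosine, fell by 1.45 (114 to 41.5 CPM), and the repair genes Apex1 and Parp1 by 1.35 and 1.20. Shmt2, of the one-carbon pathway, fell by 1.46, Zfp57, which guards methylation at imprints, by 1.26, and Cdca7, the partner of Hells, by 1.19. Cxxc5, which binds unmethylated CpG, was upregulated (1.22, 2.91 to 6.73 CPM).

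In 6KO2, 6 machinery genes were downregulated and 2 upregulated, beside 5.39% and 15.3% of all genes. Idh1 (-1.997), Cdca7 (-1.16), Apex1 (-1.10) and Cxxc5 (1.32) were called there as in 6KO1. Tdg (-0.70), Parp1 (-0.77), Shmt2 (-0.74) and Zfp57 (-0.29) were lower in 6KO2 by the adjusted p of edgeR but short of 2-fold. The 5 downregulated in E1E2 G9Gl, where 8.41% of all genes were, were Apex1 (-1.63), Shmt1, Ahcy, Idh1 (-1.04) and Parp1 (-1.01), of which Shmt1 (-1.16) and Ahcy (-1.11) were named after their values were seen. None was called in E1 and E1 S1S2, where 8 and 20 passed the adjusted p of edgeR alone. 1 was called in E2 (Cxxc5, 1.09) and 2 in E1E2 (Idh1, -1.76, and Cxxc5, 1.04).

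Readers of methylated CpG were more often higher than lower than WT in each mutant, from 2 of 10 in E1 to 7 of 10 in 6KO1. All 10 listed genes were tested, and with the adjusted p alone 7 were higher and 2 lower in 6KO1, and 6 were higher in each of E1 S1S2, E1E2 G9Gl and 6KO2, with 1, 0 and 1 lower. In E2, E1E2 and E1, 5, 3 and 2 were higher and 0 lower. Of all genes, 66.3% passed in either direction for 6KO1, 41.8% for E1 S1S2, 59.1% for E1E2 G9Gl and 54.5% for 6KO2. For E2, E1E2 and E1 these shares were 26.9%, 33.1% and 13.3%. In E1E2 G9Gl, E1E2 and E1 the readers thus passed about as often as all genes. In 6KO2, with 7 of 10, they were not far above. These shares are not split by direction, so the higher and lower counts of readers have no matching share. Mbd4 is in both the reader and the machinery list. The median log2 fold change of the readers was 0.74 for 6KO1, 0.40 for E1E2 G9Gl and 0.35 for 6KO2, beside 0.06, 0.01 and 0.04 for all genes. For E1 and E1E2 the readers had medians of 0.08 and 0.07. At the fold threshold 2 of 10 were upregulated in 6KO1, near the 20.6% of all genes, and 3 of 10 in each of E1E2 G9Gl (16.8%) and 6KO2 (15.3%). Zbtb38, a zinc finger protein that binds methylated CpG, was upregulated in 6KO1 (1.799, from a mean of 51.5 to 179 CPM), E1E2 G9Gl (2.04, 212 CPM) and 6KO2 (1.46, 142 CPM). Zbtb4 was upregulated in 6KO1 (1.07, 23.0 to 48.0 CPM). In E1E2 G9Gl and 6KO2 the other 2 of 3 upregulated readers were Mbd1 (2.80 and 1.41) and Mbd6 (1.42 and 1.02), named after their values were seen. No reader was called in E1, E1 S1S2, E2 or E1E2, where 2, 7, 5 and 3 passed the adjusted p of edgeR alone.

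**Figure D5:**
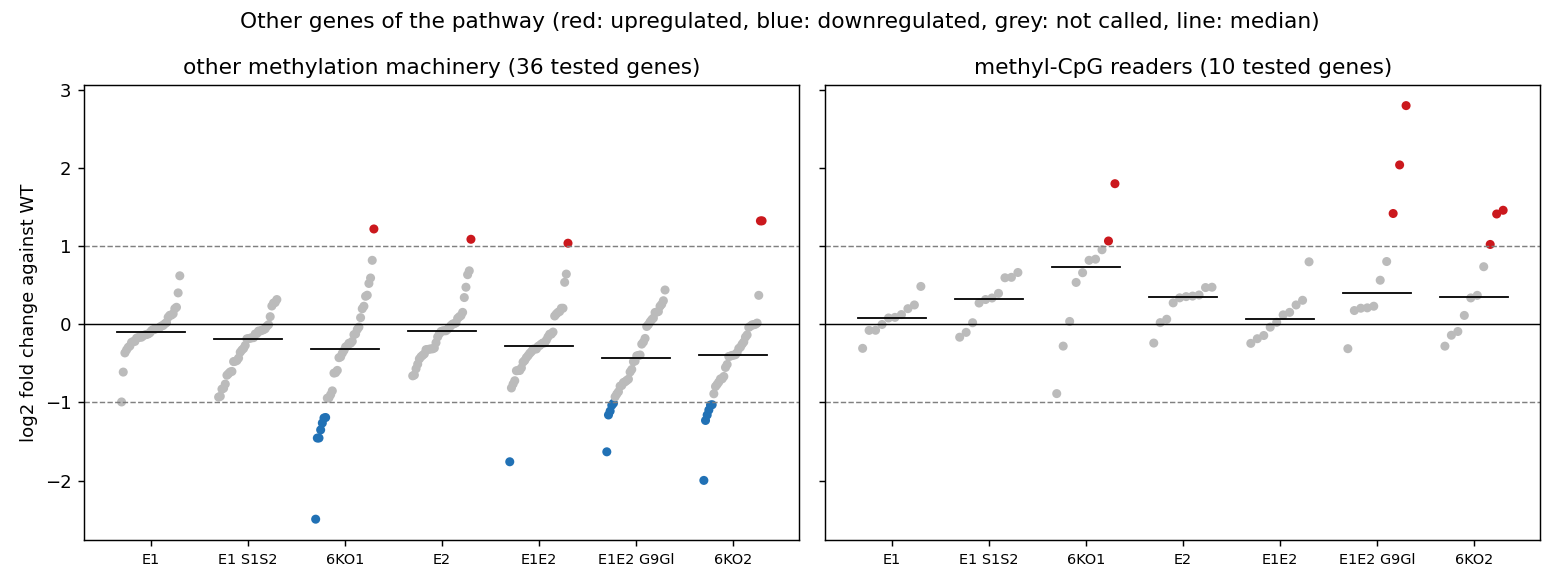
Log2 fold change against WT (vertical axis) of the 36 tested machinery genes (left) and the 10 methyl-CpG readers (right) in the 7 mutant conditions (horizontal axis). Red points are upregulated, blue points downregulated and grey points not called, dashed lines mark a 2-fold difference, and black lines are medians, which lie at -0.31 for the machinery and 0.74 for the readers in 6KO1.

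Germline genes that DNA methylation is known to silence stayed at low CPM, apart from Tex101 in E1E2 G9Gl. More of them had counts in each mutant than in WT. Of 18 listed genes, 3 had enough counts to be tested. Taf7l was upregulated in 6KO1 (1.59, 0.144 to 0.442 CPM in the mean) and 6KO2 (1.65, 0.458 CPM). Tex101, with no count in WT, was called in 6KO1 at 0.130 CPM, within the range of 3 counts per library, and in E1E2 G9Gl at 7.33 CPM. All 18 summed to 1.07 to 1.30 CPM in WT, 2.20 to 2.59 in E1 S1S2, 2.61 to 3.89 in 6KO1, 8.27 to 9.82 in E1E2 G9Gl and 1.90 to 2.31 in 6KO2. In WT 12 of the 18 had no count, against 3 in each of E1 S1S2, 6KO1 and 6KO2 and 6 to 10 in the other conditions. Among 22 genes of S phase and mitosis, all tested, the median log2 fold change was -0.22 in 6KO1 and -0.30 in 6KO2 and between -0.08 and 0.12 in the other conditions. E2f1 was upregulated (1.25) and Cdk1 downregulated (-1.11) in 6KO1. Their summed level was 4979 to 5770 CPM in WT, 4461 to 4597 in 6KO1 and 4345 to 4502 in 6KO2, and the part of this shift in the Hells values was not tested.

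The genes most like each member were taken by Pearson's r of log2 CPM over the 24 libraries, which share clones and conditions. Tet1 was most like Pfas (0.97), Mthfd1 (0.97) and Thop1 (0.97), of which Pfas acts in purine synthesis and Mthfd1 in one-carbon metabolism. Hells was most like Cops2 (0.97), Ppig (0.96) and Cstf3 (0.96). Tet3 was most like Ube2o (0.96), Zmiz1 (0.93) and Casc3 (0.93), and Dnmt3b was most like Ppp1r26 (0.95), Steap3 (0.93) and Armc9 (0.91). Dnmt1 was most like Dzip1l (0.94), Usp19 (0.93) and Setd2 (0.92), and Dnmt3a was most like Insr (0.93), Arhgap32 (0.92) and Pld2 (0.92). For Uhrf2 these were Zfp809 (0.92), Specc1 (0.89) and Dyrk1a (0.89). For Uhrf1 they were Mki67 (0.87), a marker of cycling cells, Atxn7l3 (0.86) and Amigo2 (0.85), and for Tet2 they were Dhx57 (0.81), Dnajb14 (0.80) and Cdk5rap2 (0.78).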

How the data were processed

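Total RNA of 24 MEF cultures in 8 conditions (3 replicates each) was sequenced as stranded paired-end libraries. The authors trimmed reads with cutadapt 1.8.1, aligned them to GRCm38 with STAR 2.5.2b and counted them on genes and repeats with TEtranscripts, and they deposited whole-number counts without normalization. All columns were matched to samples by name (0 without a sample). The table holds 47937 genes, 1445 repeat elements and 1 malformed entry, which was left out. Symbols, coordinates and exon lengths came from GENCODE vM21, and promoters from the RefSeq table (GRCm38.p6).

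Low counts were removed with filterByExpr by condition, leaving 18565 genes and 9 of 10 members. CPM used TMM-scaled gene totals, and RPKM the union of exons. Tests were two-sided and used edgeR's quasi-likelihood F statistic (R 4.3.3 with edgeR 4.0.16 and limma 3.58.1), with 1 coefficient per condition and Benjamini-Hochberg adjustment over all genes, and the SE is the log2 fold change divided by the square root of F. In simulated 6KO1 against WT counts of 18565 genes, 183 of 200 genes changed 4-fold were called (91.5%) and 0 others. Replicates are biological replicates of 1 line or clone, so p-values measure the spread between its cultures. The floor of 3 counts covers counting error only, whereas the SDs and SEs include the spread between cultures. Figures were drawn with matplotlib 3.10.9.

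The members and gene lists were chosen with earlier results of these data known. Named are all members, up to 8 called genes per list with the largest change in 6KO1, and the 3 genes most like each member. Other names are marked. Alternatives were DESeq2 1.42.0, RLE factors, TMM factors from genes and repeats together, no filter, a mean normalized count above 100, only the 6 libraries compared, the replicate number as a block, no fold threshold, each library left out, and the longest transcript as length. The 2 tests of a difference between 2 steps were added after the data were seen. DNA methylation itself was not measured in these files. No protein sequences were used here.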

Additional observations from a re-analysis of the deposited data

Results flagged for a closer look

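In 5 cases the change of a member differed between 2 backgrounds, by edgeR's test of the difference itself with adjustment over all genes. The Suv39h1 and Suv39h2 mutations went with a drop of Tet1 on E1 (-2.26) and not on E1E2 G9Gl (0.09), where Tet1 was already low, a difference of 2.35 ± 0.22 (edgeR adjusted p 8.28e-09). For Dnmt3a the values were 0.87 and -0.13, a difference of -1.01 ± 0.17 (edgeR adjusted p 2.23e-05). For Uhrf2 they were 0.06 and -0.28, a difference of -0.35 ± 0.07 (edgeR adjusted p 0.000117). For Tet3 they were 0.03 and 0.68, a difference of 0.65 ± 0.16 (edgeR adjusted p 0.00185). No others of the 9 tested members passed this contrast, and 39.2% of all genes did, a similar share. The change of Uhrf1 with 4-OHT differed between the Eset2 clone and the parent line by -0.31 ± 0.07 (edgeR adjusted p 0.00323), a contrast that 8.88% of all genes passed. No other member passed there, so neither contrast sets the members apart from all genes. Both contrasts were added after the data were seen. Suv39h2 was already below WT in E1E2 G9Gl (-1.47 on the log2 scale), before its mutation.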

How the results depend on the processing

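Tet1 kept its calls in the comparisons where it was downregulated, and no other member was called, under DESeq2, RLE factors, factors from genes and repeats together, both filter settings, the 6-library fit and each library left out. The replicate block also left the counts of members at 0 in E1 and 1 in 6KO1 and changed none of 47 member fold changes that passed. Same-numbered libraries correlated at -0.29 to 0.24 in their deviations from condition means, 0 of 13 comparisons had every pair above 0.1, and 12 of 24 libraries correlated best with their own number, so the numbers give no pairing. Over all alternatives these 47 values came out 1457 times, 1372 times past the adjusted p, 85 times with the same direction but not past it, and 0 times reversed. Of the 85, 22 came from the fit of only the 6 libraries compared. Without a fold threshold, the members called against WT were 1 for E1, 6 for E1 S1S2, 4 for 6KO1, 5 for E2, 7 for E1E2, 7 for E1E2 G9Gl and 4 for 6KO2, and in the steps 4 (E1 S1S2 against E1), 2 (6KO1 against E1 S1S2), 1 (E1E2 against E2), 2 (E1E2 G9Gl against E1E2), 2 (6KO2 against E1E2 G9Gl) and 2 (6KO1 against 6KO2). In the same order of 7 conditions, machinery genes were 8, 20, 28, 19, 25, 24 and 28, and readers 2, 7, 9, 5, 3, 6 and 7. Machinery genes called were 1 in E1 with 6 libraries and 3 in E1E2 G9Gl at a mean normalized count above 100. With single libraries left out, machinery genes ranged from 0 to 1 in E1 (1 without WT replicate 1, E1 replicate 1 or E1 replicate 3), 0 to 2 in E1 S1S2 (2 without WT replicate 1, 1 without WT replicate 3), 0 to 1 in E2 (0 without WT replicate 2) and 1 to 2 in E1E2 (1 without WT replicate 2 or E1E2 replicate 1), and readers from 1 to 3 in 6KO1 (1 without WT replicate 2 or 6KO1 replicate 1). The cause was not tested. With the longest transcript as length, the WT RPKM of Uhrf2 was 33.3 in place of 13.7, and that of Tet1 1.33 in place of 1.23. Of the 5 differences between steps, that of Uhrf1 missed the threshold with no filter (-0.33) and without E1 replicate 1 (-0.29) or E1E2 replicate 1 (-0.29), and that of Tet3 without E1 S1S2 replicate 2 (0.58) or E1E2 G9Gl replicate 3 (0.57). Tet1 in 6KO1 and Dnmt3l are limited by depth, with at most 30 and 2 counts per library.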
